A study of Cucumis sativus with 4 samples.

Results

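A set of 143 genes, out of 20000 listed, was high in young fruits of the long-fruited cucumber (Cucumis sativus) line 408 and stepped down steeply to the lowest library of the short-fruited line 409. The members were chosen from their RPM values (a gene's reads scaled to a library total of 1000000 over the listed genes, with no division by gene length). A gene had to reach at least 20 RPM in 408 replicate 1, be at least 10-fold higher there than in 409 replicate 2, be 1.25-fold to under 2-fold higher again in 408 replicate 2, and average under 500 RPM over the 4 libraries. These limits fix 3 of the 4 values of each gene relative to one another, so the fall over these 3 libraries is how the genes were picked and is no finding. The value in 409 replicate 1 was left nearly free, since it entered only through the average.

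The lines are near-isogenic, meaning bred to share most of their genome, and were grown in greenhouses at one station. Each line had 2 libraries. A library came from 3 to 5 pooled fruits, each from another plant and 2 to 4 cm long, and all fruits were picked on one day. The labels name no treatment and no transgene. Fruits of equal length need not be at the same stage of growth in a long-fruited and a short-fruited line, and line, stage and fruit age cannot be told apart in this design.

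In cucumber, final fruit length is set by cell division in the ovary and very young fruit and by cell expansion afterwards, and both processes change quickly over the days around flowering. A young fruit is a mixture of skin, flesh, vascular tissue, placenta and developing seeds, and a library made from whole fruits averages over all of them. In such bulk samples fewer cells of a type and less RNA per cell cannot be told apart. The deposited table gives gene IDs without names, and none of the IDs matched the gene table used as reference (0 of 20000), so the members are described by ID, level and position among the IDs, and tissue markers were not examined.

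The estimated depth was 12504000 reads in 408 replicate 1 and 13808000 in 408 replicate 2, and 13753000 in 409 replicate 1 and 12256000 in 409 replicate 2. One read was therefore worth 0.0724 to 0.0816 RPM. Pearson's correlation of log2(RPM + 1) over all tested genes (those reaching 1 RPM in 2 or more libraries) was 0.975 within line 408, 0.981 within line 409 and 0.833 to 0.947 between lines, as a description across genes, which are not independent.

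The genes were of moderate level in the long-fruited line. In 408 replicate 1 they ran from 20.1 to 486.8 RPM with a median of 48.6 RPM. In 408 replicate 2 they ran from 28.0 to 753.7 RPM with a median of 85.5 RPM. In 409 replicate 1 the range was 2.3 to 136.5 RPM and the median 9.20 RPM. In 409 replicate 2 the range was 0.1 to 37.3 RPM and the median 2.60 RPM. For comparison, the median of all 17391 tested genes lay between 22.4 and 26 RPM in every library, so the members' median lay above that of the table in both 408 libraries and below it in both 409 libraries. Summed, they took 1.05% and 1.70% of the reads in 408 replicates 1 and 2, and 0.228% and 0.0617% in 409 replicates 1 and 2.

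**Figure D1:**
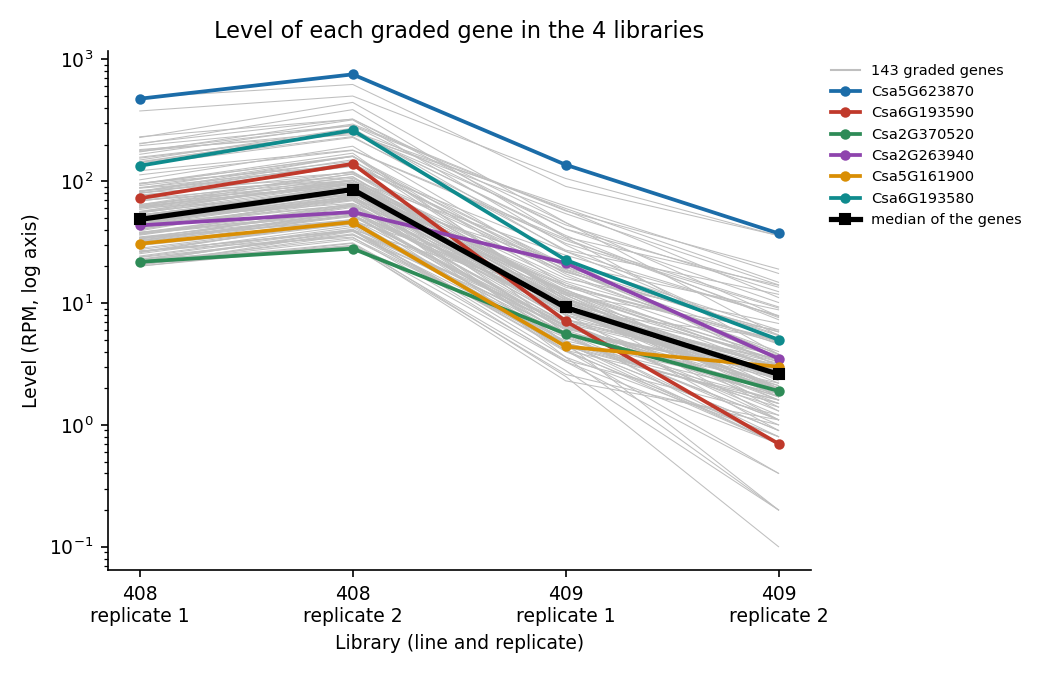
Level in RPM (log axis) of the 143 graded genes in the 4 libraries, with 1 grey line per gene, the median in black and the 6 genes named by a fixed rule in colour. The median was 48.6 and 85.5 RPM in the 408 libraries and 9.20 and 2.60 RPM in the 409 libraries.

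At 100 RPM or more, 25 genes were found in 408 replicate 1 and 53 in 408 replicate 2, against 2 in 409 replicate 1 and 0 in 409 replicate 2. Below 5 RPM there was no member in either 408 library, against 25 members in 409 replicate 1 and 111 in 409 replicate 2. Below 1 RPM, 18 members were found in 409 replicate 2 and none in the other 3 libraries. No member was listed at 0 in any library.

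The member with the highest mean was Csa5G623870. It measured 475.7 and 753.7 RPM in line 408 and 136.5 and 37.3 RPM in line 409, or 615 ± 197 RPM in line 408 and 86.9 ± 70.1 RPM in line 409 (mean ± SD, n = 2 per line). Both 408 libraries lay above both 409 libraries, and the ratio of the line means was 7.07. The next most abundant member, Csa1G009820, measured 486.8 and 622.9 RPM in line 408 and 90.7 and 35.8 RPM in line 409. Csa3G121720 followed with 377.3 and 500.4 RPM in line 408 and 105.4 and 35.7 RPM in line 409. These 3 genes had nearly equal levels in 409 replicate 2, at 35.7 to 37.3 RPM, but not in 409 replicate 1, where the highest was 136.5 and the lowest 90.7 RPM. The last 2 of them were named after their values were seen.

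The steepness was measured as the span from 408 replicate 2 to 409 replicate 2, as a difference of log2(RPM + 1). Over the members it had a median of 4.32, with an interquartile range over genes of 4.03 to 4.85. The largest span, 6.36, belonged to Csa6G193590, at 72.5 and 138.8 RPM in line 408 and 7.1 and 0.7 RPM in line 409. Its level in 409 replicate 2 rests on about 9 reads. The smallest span, 3.32, belonged to Csa2G370520, at 21.8 and 28.0 RPM in line 408 and 5.6 and 1.9 RPM in line 409. This gene lies close to the lower limits of the rule, both in its level in 408 replicate 1 and in the 11.5-fold excess of 408 replicate 1 over 409 replicate 2. Among all tested genes the median span was 0.10, with quartiles of -0.51 and 0.79.

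Spans differed only slightly with level. The 48 members with the highest means (47.8 to 350.8 RPM) had a median span of 4.77, the 47 in the middle (27.9 to 46.3 RPM) 4.42, and the 48 lowest (13.3 to 27.9 RPM) 4.25. The added pseudocount of 1 RPM shortens the span of low genes. Without it the median fold of 408 replicate 2 over 409 replicate 2 was 33.4 in the highest class, 27.4 in the middle class and 29.0 in the lowest class, which is no steady order.

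The span consisted of 3 steps of unequal size. From 408 replicate 2 to 408 replicate 1 the median step was 0.70 on the log2(RPM + 1) scale, which the window of the rule holds between narrow bounds. From 408 replicate 1 to 409 replicate 1 it was 2.25, and from 409 replicate 1 to 409 replicate 2 it was 1.60. On this scale the step between the lines was the largest of the 3 in 122 members. The step between the 409 replicates was the largest in the other 21. This split depends on the pseudocount of 1 RPM, which shortens the step down to the low levels of 409 replicate 2. In plain folds Csa1G013800, counted among the 122, fell 9.53-fold between the lines and 23.5-fold between the 409 replicates. Other members of the 122 also had the larger plain fold between the 409 replicates. Examples picked after the values were seen were Csa1G009590 (4.94-fold and 5.42-fold) and Csa3G061020 (4.82-fold and 5.7-fold). The split therefore holds only on the log2(RPM + 1) scale. The step between the lines and the step between the 409 replicates share the bound that the rule set on 408 replicate 1 over 409 replicate 2. The latter also includes the low level of 409 replicate 2 for which the genes were picked, so the sizes of both are given as a description. In folds, 408 replicate 2 was a median 1.64 times 408 replicate 1, with quartiles of 1.5 and 1.79. Within line 409, replicate 1 was a median 3.73 times replicate 2, with quartiles of 2.97 and 5.11. Over all tested genes the corresponding median folds were 1.00 and 1.06.

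The place of 409 replicate 1 is the value that the rule did not set. In all 143 members it lay below 408 replicate 1 and above 409 replicate 2, so that every member followed the order of 408 replicate 2, 408 replicate 1, 409 replicate 1 and 409 replicate 2. Among all tested genes 5118, or 29.4%, had this order, and 3336, or 19.2%, had it reversed. With a gap of 10-fold or more between the libraries on either side there is much room for a value to fall between, so nothing is read from the count of 143 itself.

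The members were a median 5.13-fold higher in 408 replicate 1 than in 409 replicate 1, with quartiles of 4.28 and 6.06. The lowest of these folds was 2.04 and the highest 14.2. For all tested genes the median fold of the same libraries was 1.02, with quartiles of 0.81 and 1.37. With 1 library on each side this comparison has no replicate error and no test. Summed over the members, 408 replicate 1 held 4.60 times the RPM of 409 replicate 1. Csa5G623870 and Csa3G121720, the first and the third in abundance, had folds of 3.48 and 3.58.

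**Figure D2:**
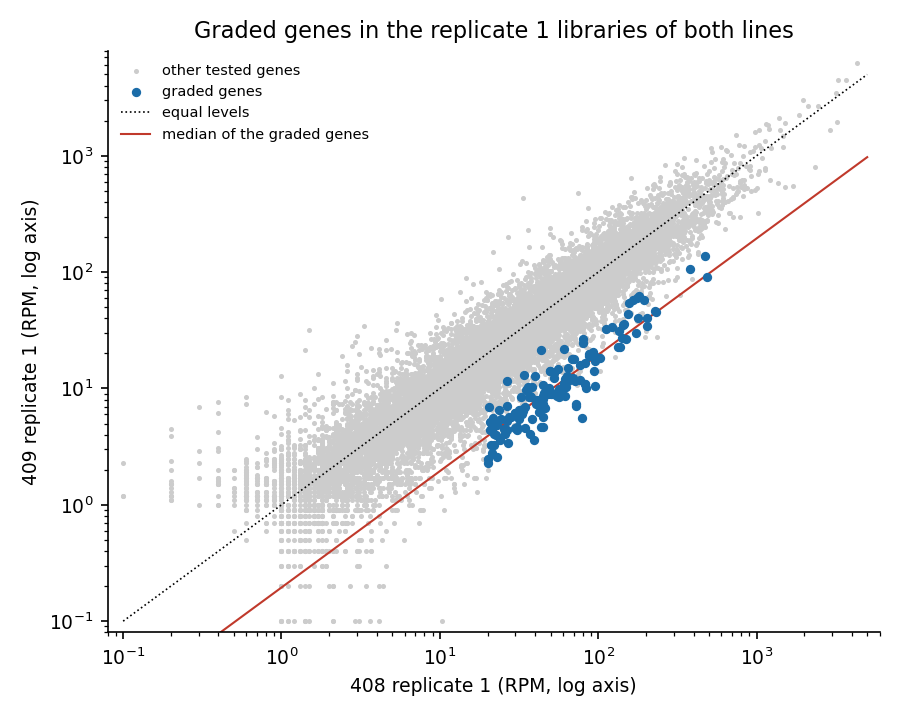
Level of each gene in 408 replicate 1 against 409 replicate 1 (both in RPM, log axes), with graded genes in blue and other tested genes in grey. The red line marks the graded genes' median, 5.13-fold higher in 408 replicate 1, and every blue point lies below the dotted line of equal levels.

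The reads behind each level limit the precision of these folds. Exact binomial 95% intervals were computed from the approximate reads of each member, and cover counting error only. For the fold of 408 replicate 1 over 409 replicate 1, the interval held the median of 5.13 in 71 of 143 members, lay above it in 32 and below it in 40. The fold of 408 replicate 2 over 408 replicate 1 was covered at its median in 84 members. For 409 replicate 1 over 409 replicate 2 the interval held the median of 3.73 in 99 members, lay above it in 27 and below it in 17, with intervals that were much wider. The upper bound was a median 2.30 times the lower bound for this fold, against 1.48 times for 408 replicate 1 over 409 replicate 1 and 1.22 times for the 408 replicates.

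On a scale where 0 is the level of 409 replicate 2 and 1 is the level of 408 replicate 1, both as log2(RPM + 1), 409 replicate 1 had a median place of 0.42. The interquartile range over members was 0.36 to 0.47, and 110 of the 143 members fell between 0.3 and 0.5. A place of 0.5 or higher was found in 21 members and a place under 0.25 in 6. These counts depend on the pseudocount of 1 RPM, without which the median place was 0.46. The highest place, 0.70, was that of Csa2G263940, with 43.4 and 55.9 RPM in line 408 and 21.3 and 3.5 RPM in line 409. In this gene 409 replicate 1 was 2.04-fold below 408 replicate 1 and 6.09-fold above 409 replicate 2. The lowest place, 0.14, was that of Csa5G161900, with 30.7 and 46.2 RPM in line 408 and 4.4 and 3.0 RPM in line 409. Here the 409 pools differed by 1.47-fold, with a counting interval of 0.96 to 2.27, so that a difference between these 2 libraries was not detectable at this depth.

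The same place was then taken in genes that met the other limits but had a smaller fold of 408 replicate 1 over 409 replicate 2. In the 65 members with a fold of 20 or more the median place was 0.43 (quartiles 0.39 and 0.46), and in the 78 members with 10-fold to under 20-fold it was 0.40 (0.34 and 0.48). In 139 genes with 5-fold to under 10-fold it was 0.40 (0.34 and 0.48), and all 139 had 409 replicate 1 between the other libraries. In 644 genes with 2-fold to under 5-fold the median was 0.40 (0.30 and 0.51), with 97.5% of the genes between. In 550 genes with 1.25-fold to under 2-fold it was 0.36 (0.22 and 0.55), with 87.8% between. The medians of the 5 classes lay between 0.36 and 0.43 on the log2(RPM + 1) scale. The pseudocount of 1 RPM lowers the place where 409 replicate 2 is low, as in the classes of large fold. Over all members the median place was 0.42 with it and 0.46 without it. The place without it is not given by fold class, so no constant place is read from these medians. The place divides by the gap that defines the classes, so a narrower spread and a higher share between at larger folds follow from how it is computed.

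**Figure D3:**
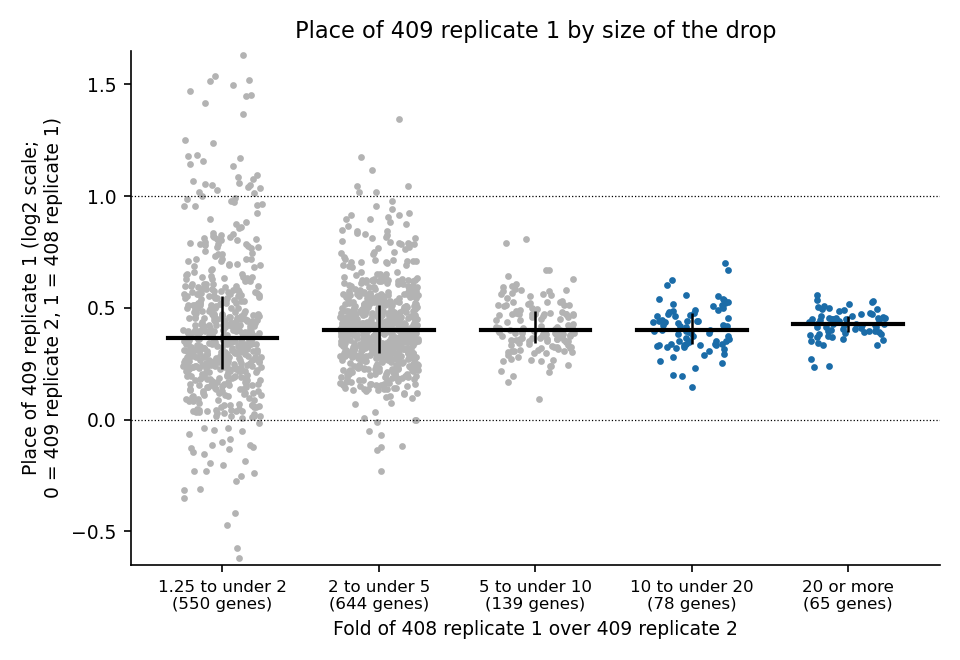
Place of 409 replicate 1 between 409 replicate 2 (0) and 408 replicate 1 (1), by the fold of 408 replicate 1 over 409 replicate 2, with 1 point per gene, members in blue and genes below the 10-fold limit in grey. Thick bars are medians and thin bars interquartile ranges. The medians run from 0.36 to 0.43 with the pseudocount of 1 RPM, which lowers the place where 409 replicate 2 is low. Outside the axis fall 5 of 1476 genes.

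Across the 143 members the place had a Pearson's r of 0.35 and a Spearman's rho of 0.38 with the log2 mean. Much of this came with the pseudocount of 1 RPM, since without it the coefficients were 0.12 for both. The median place by level class was 0.45, 0.42 and 0.39 in the highest, middle and lowest class with the pseudocount, and 0.48, 0.45 and 0.45 without it. With the fold between the 408 replicates the place had a rho of 0.00, or 0.06 without the pseudocount. The fold between the 409 replicates and the fold between the 408 replicates had a rho of 0.22. These coefficients describe genes that share the same 4 libraries, and 409 replicate 1 and 408 replicate 1 each enter more than one of the quantities.

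The line difference was put beside that of all genes with a linear model per gene (limma on log2(RPM + 1); a call is a Benjamini-Hochberg adjusted p below 0.05). Of the 17391 tested genes 17.1% were called higher in line 408. All 143 members passed the filter on low values, and 140 were called. The members were chosen on this same contrast, so nothing is read from that count. Their median log2 difference, line 408 minus line 409, was 3.30 (quartiles 3.03 and 3.63), against a median of 0.06 over all tested genes. Both 408 libraries lay above both 409 libraries in every member, as in 41.8% of all tested genes. The ratio of line means was a median 10.6, with quartiles of 8.36 and 13.1.

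The standard errors of the members were large. They ran from 0.28 to 0.96 with a median of 0.58, against a median of 0.20 over all tested genes. The window of the rule asks for a difference between the 408 replicates, and the low level asked of 409 replicate 2 favours one between the 409 replicates, so these errors are not independent of how the genes were picked. The 3 members that were not called, named here after their values were seen, were those with the 3 highest places of 409 replicate 1, at 0.63 to 0.70. Beside Csa2G263940 they were Csa1G569460, with 26.5 and 39.8 RPM in line 408 and 11.7 and 1.7 RPM in line 409, and Csa7G441630, with 34.1 and 47.4 RPM in line 408 and 13.0 and 2.0 RPM in line 409. In all 3 the 409 replicates were farther apart than in most members, and the limma adjusted p values were 0.0512 to 0.0703. In limma fits on any 3 of the 4 libraries no gene was called, member or other. All 143 members stayed higher in line 408 in these fits. The rule set or favoured that direction, so nothing is read from it. At an unadjusted p under 0.05 these fits held 80 to 143 members and 3974 to 7264 of all tested genes.

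A subset of 6 members came close to no reads in one 409 pool. They had 0.1 to 0.4 RPM in 409 replicate 2, about 1 to 5 reads, with 2.5 to 4.7 RPM in 409 replicate 1. One of them, Csa1G013800, was chosen after its values were seen. It measured 44.8 and 82.4 RPM in line 408 and 4.7 and 0.2 RPM in line 409. Its level in 409 replicate 1 was well above the 0.218 RPM that 3 reads are worth there, whereas its level in 409 replicate 2 was under the 0.245 RPM of 3 reads in that library. Over all members the levels rested on a median of 608 and 1181 reads in the 408 replicates, against 127 reads in 409 replicate 1 and 32 reads in 409 replicate 2.

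Genes lay close to the limits of the rule on both sides. The member nearest to the level limit had 20.1 RPM in 408 replicate 1, and the nearest gene outside by that limit alone had 19.8 RPM. The nearest folds of 408 replicate 1 over 409 replicate 2 were 10.1 inside and 9.92 outside. For 408 replicate 2 over 408 replicate 1 they were 1.25 inside and 1.24 outside at the lower end, and 1.99 inside and 2.01 outside at the upper end. The average limit of 500 RPM alone removed no gene, and the highest mean of a member was 350.8 RPM.

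Without the window on the 408 replicates and the limit on the mean, 163 genes met the level and fold limits. The 20 that were no members had 408 replicate 2 under 1.25 times 408 replicate 1 in 8 genes and at 2 times or more in 12, and 1 gene among those 12 also exceeded the mean limit. The median place of 409 replicate 1 was 0.42 (quartiles 0.36 and 0.47) in the members, against 0.51 (0.41 and 0.63) in these 20 genes. The median fold of 409 replicate 1 over 409 replicate 2 was 3.73 in the members and 6.44 in these genes. No test was made of either difference.

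The rule gave 143 members, and the same 4 limits with the lines exchanged gave 3 genes (409 replicate 1 at 20 RPM or more and 10-fold above 408 replicate 2, and 409 replicate 2 higher again within the same window). The limits were drawn up for genes high in line 408, so nothing is read from 143 against 3. Without the window and the mean limit the exchanged rule held for 29 genes, against 163 for the rule itself. Of the 29 genes, 26 had 408 replicate 1 between 409 replicate 1 and 408 replicate 2. The first of the 3 genes measured 69.4 and 2.2 RPM in line 408 against 28.4 and 38.9 RPM in line 409, so that 408 replicate 1 was above both 409 libraries. The second measured 29.7 and 6.8 RPM in line 408 against 72.6 and 120.3 RPM in line 409. The third measured 21.2 and 2.7 RPM in line 408 against 30.8 and 41.0 RPM in line 409.

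The IDs carry a digit that, by the naming convention of these cucumber IDs, stands for the chromosome, followed by a number that increases along it. Members occurred under all 7 digits and not among the 127 genes whose IDs have UN in place of a digit. Digit 6 held 30 members, or 21% of them, with 16.6% of the listed genes. Digit 3 held 20 members, or 14.0%, with 20.9% of the listed genes. Digit 1 held 23, digit 2 held 21, digit 5 held 20, digit 4 held 15 and digit 7 held 14. Members made up 0.479% of the listed genes of digit 3 and 0.902% of those of digit 6, against 0.715% of all. The genes called higher in line 408 made up 16.6% of the tested genes of digit 3 and 17.7% of those of digit 6. The place of 409 replicate 1 differed little between digits, with medians of 0.39 to 0.44, and the median spans ran from 4.22 to 4.70.

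**Figure D4:**
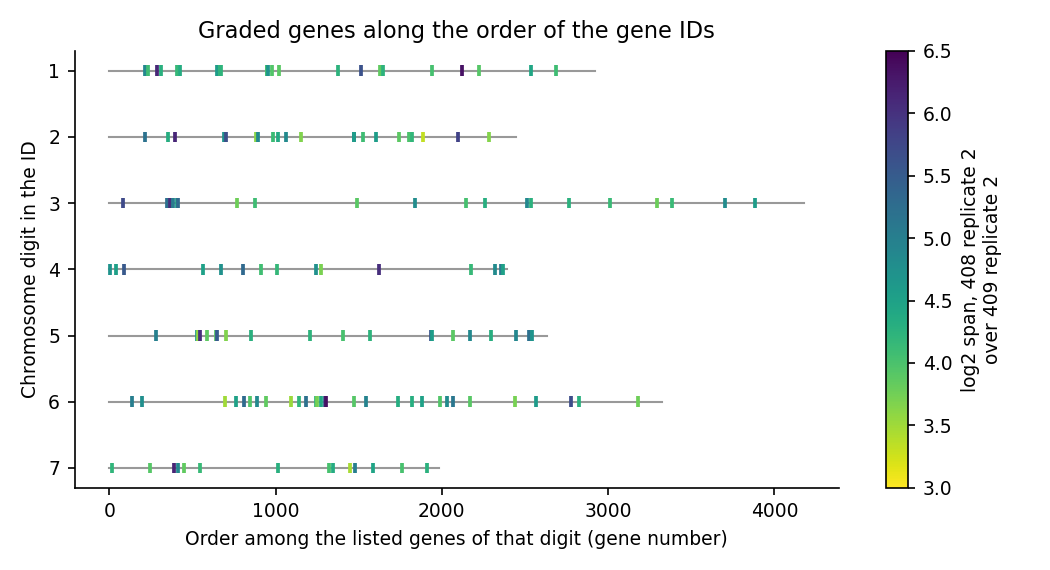
Order of the 143 graded genes among the listed genes of each chromosome digit, with 1 tick per gene coloured by its log2 span from 408 replicate 2 to 409 replicate 2. Members occur under all 7 digits, from 14 under digit 7 to 30 under digit 6.

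Along the ID order successive members of a digit were a median of 96 listed genes apart, with quartiles of 35.8 and 190. In windows of 100 listed genes, 98 of 196 windows held no member, 69 held 1, 20 held 2, 6 held 3 and 3 held 4. A single pair of members were direct neighbours, so that 2 members, or 1.40%, had another member beside them, as had 284, or 1.42%, of all 20000 listed genes. These were Csa6G193580 and Csa6G193590. The first measured 134.0 and 262.3 RPM in line 408 and 22.6 and 5.0 RPM in line 409, and the second 72.5 and 138.8 RPM in line 408 and 7.1 and 0.7 RPM in line 409. Their folds between the 408 replicates were nearly equal, at 1.96 and 1.91. Their folds of 408 replicate 1 over 409 replicate 1 were 5.93 and 10.2, with counting intervals of 5.25 to 6.71 and 8.26 to 12.7 that did not overlap. Near-identical neighbouring copies can share reads, and whether these genes are related was not analysed here.

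Another 3 pairs had 1 or 2 listed genes between them, and are named after their values were seen. Neighbours here are taken by order among the listed IDs, whatever the gap between their numbers. The numbers of these pairs, in the order given below, lay 20, 30 and 510 apart, against 10 for the direct pair. Csa2G348200 measured 43.6 and 75 RPM in line 408 and 4.7 and 0.7 RPM in line 409. Csa2G348220 had 44.1 and 78.8 RPM in line 408 and 7.9 and 2.4 RPM in line 409. The gene between them, Csa2G348210, did not follow them, at 43.7 and 39.6 RPM in line 408 and 44.0 and 45.0 RPM in line 409. The members of the pair had close values in line 408 and enclosed a gene that varied little over the 4 libraries and was not called (limma log2 difference -0.09, adjusted p = 0.616).

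Csa6G188070 and Csa6G188100 enclosed 2 genes. Csa6G188070 measured 45.0 and 82.7 RPM in line 408 and 7.3 and 3.5 RPM in line 409. Csa6G188100 measured 70.5 and 89.3 RPM in line 408 and 18.0 and 5.8 RPM in line 409. The first gene between them was lower in line 408, at 24.9 and 17.2 RPM against 35.7 and 31.8 RPM in line 409, and the second had the members' order with far smaller steps, at 36.2 and 39.6 RPM in line 408 and 30.7 and 28.9 RPM in line 409. Csa1G060260 and Csa1G060770 enclosed Csa1G060760, which had the members' order at a smaller size, with 127.8 and 184.0 RPM in line 408 and 64.3 and 24.7 RPM in line 409. It missed the rule because 408 replicate 1 was under 10-fold above 409 replicate 2. The stretch from Csa6G188070 to Csa6G193590 held 57 listed genes, of which 5 were members, or 8.77%. Members made up 0.902% of the listed genes of digit 6 and 0.715% of all. The stretch was singled out after the values were seen and begins and ends on a member, which raises its share, so nothing is read from it.

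The direct ID neighbours of the members that were no members themselves numbered 282, and 255 passed the filter. Their median log2 difference between the lines was 0.12 (quartiles -0.31 and 0.58), against 0.06 (-0.38 and 0.58) for all tested genes. Among the neighbours 17.6% were called higher in line 408 and 11% lower, against 17.1% and 10.1% of all tested genes (limma, as above). A log2 difference of at least 1 in favour of line 408 was found in 15.3% of the neighbours and 12.5% of all tested genes, and one of at least 2 in 3.14% and 2.91%. The order of the members over the 4 libraries was found in 28.2% of the neighbours and 29.4% of all. The neighbours' shares were near those of the whole table.

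**Figure D5:**
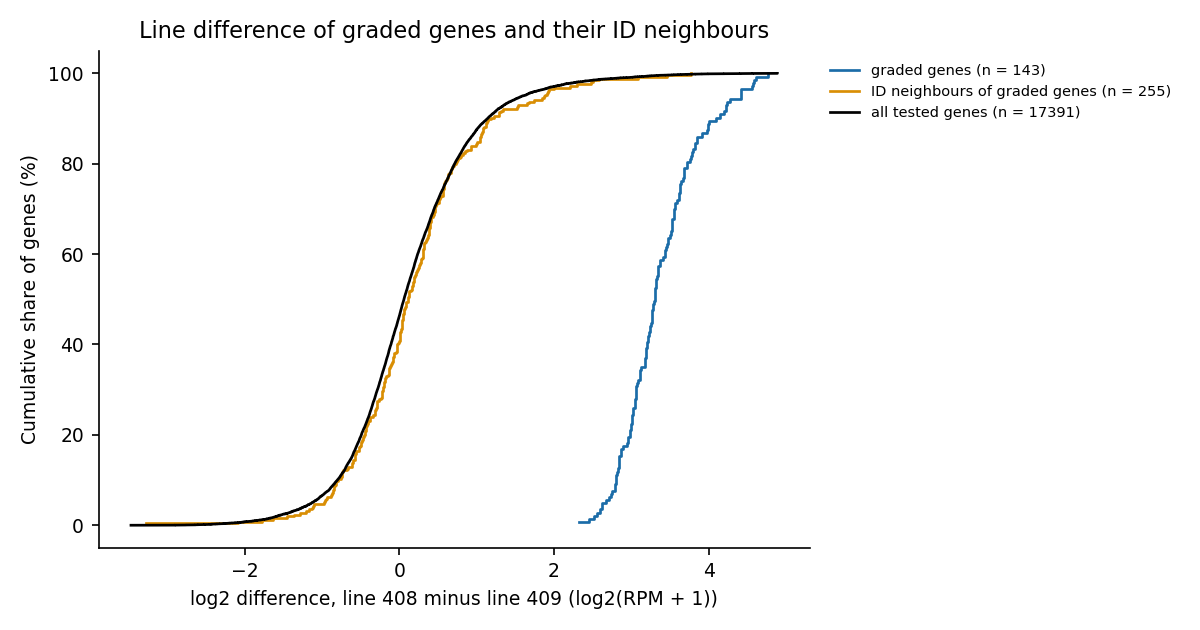
Cumulative share of genes (%) by log2 difference between the lines (line 408 minus line 409, log2(RPM + 1)), for the 143 graded genes, their 255 tested ID neighbours and all 17391 tested genes. The neighbours' curve runs close to that of all genes, with medians of 0.12 and 0.06, while the graded genes, chosen for this difference, have a median of 3.30.

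The neighbours of 5 members at the extremes of level, span and place varied. Beside Csa5G623870, the most abundant member, the preceding gene had 3.7 and 5.7 RPM in line 408 and 2.4 and 1.1 RPM in line 409. The following gene had 15.4 and 13.6 RPM in line 408 and 26.8 and 22.8 RPM in line 409. This following gene was called lower in line 408 (limma log2 difference -0.73, adjusted p = 0.0407). Before Csa2G370520 the neighbour had 85.7 and 90.7 RPM in line 408 and 88.2 and 88.1 RPM in line 409. The gene after it had 84.8 and 70.6 RPM in line 408 and 95.5 and 123.0 RPM in line 409. After Csa6G193590 the next gene had 45.9 and 17.8 RPM in line 408 and 24.8 and 21.8 RPM in line 409. Before Csa5G161900, the member with the lowest place, the neighbour Csa5G161280 had 74.9 and 95.2 RPM in line 408 and 33.9 and 24.4 RPM in line 409, and was called higher in line 408 (limma log2 difference 1.52, adjusted p = 0.0317). The gene after Csa5G161900 had 2.1 and 1.2 RPM in line 408 and 4.1 RPM in both 409 libraries. It was called lower in line 408 (limma log2 difference -0.97, adjusted p = 0.0437). Before Csa2G263940, the member with the highest place, the neighbour had 67.6 and 89.3 RPM in line 408 and 51.5 and 53.1 RPM in line 409. The gene after it had 188.4 and 195.8 RPM in line 408 and 221.6 and 220.6 RPM in line 409. Of these 9 neighbours that were no members, the genes before Csa5G623870 and before Csa5G161900 had the members' order over the 4 libraries.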

How the data were processed

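Whole young fruits were sequenced as strand-keeping poly(A) libraries, and reads were aligned with TopHat, per the labels' protocols and the submitters' processing notes. Not given in the sources used here are its version, the genome build, the counter and the strand setting of the counting. Overlapping or near-identical genes may therefore share reads. The authors deposited RPM values, rounded to 1 decimal. Each column sums to 1000000 within rounding. All 4 columns were matched to samples by name.

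The members, lists and tests were chosen with earlier results of these data known. Depth was taken from the spacing of the rounded values, with an error of at most 0.00357% on simulated libraries. Since the rounding step exceeds the worth of 1 read, read counts were only approximated and no count test was made. Intervals use approximate reads and cover counting error only. The 17391 genes that reached 1 RPM in 2 or more libraries were fitted with limma 3.58.1 in R 4.3.3 (mean-variance trend, no covariates) on log2(RPM + 1), which understates changes of low genes, and p-values were adjusted over all of them. An exact permutation test of 2 against 2 libraries has a smallest p of 0.333. On simulated reads with 200 of 17295 genes changed, the fit called 79 of 100 genes at 8-fold, 1 of 100 at 2-fold and 2 unchanged genes. Noise in the simulation was drawn independently for each gene and library. Its counts therefore need not hold where libraries deviate in many genes together. The labels describe separate pools of fruits. Named by rule were the members with the highest mean, the highest and lowest span and place, and those next to another member. Other settings were pseudocounts of 0.1 and 0.5, 2 rescalings, other filters and limits of the rule, no trend, a replicate block and leaving out each library. IDs were searched in 23999 reference genes of assembly Cucumber_9930_V3. Other steps used scipy 1.17.1, pandas 2.3.3, numpy 2.4.6 and, for plots, matplotlib 3.10.9 in Python 3.11.15.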

Additional observations from a re-analysis of the deposited data

How the results depend on the processing

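Of the 143 members 138 to 142 were called under both other pseudocounts, both rescalings, the 5 RPM filter, the fit without the trend and the replicate block. Under the block 138 members and 5.21% of all tested genes were called higher in line 408, against 17.1% of all without it; under the other settings the share of all genes was 15.4% to 18.8%. Without a filter on low values 0 members and 0 of all 20000 genes were called (limma, smallest adjusted p 0.0674, 142 members and 8340 of all genes at an unadjusted p under 0.05), and the cause was not tested. Fits that left out 1 library each made 0 to 0 calls among the members and 0 among all genes, with 80 to 143 members at an unadjusted p under 0.05 in fits with fewer samples, where the lone library is assumed to vary like the other line. The labels do not say that replicate numbers mark a shared batch, and deviations of same-numbered libraries correlated at -0.48 across genes. The members' median log2 difference ran from 2.59 to 4.00 when 1 library was left out and stayed within that range elsewhere. The median place of 409 replicate 1 ran from 0.39 to 0.46 over 9 other settings, of which the one with no pseudocount (0.46) was chosen after seeing the data. The median ratio of 409 replicate 1 to 408 replicate 1, 0.195, was 0.265 when 5-fold over 409 replicate 2 sufficed and 0.172 to 0.201 elsewhere. Pairs of direct neighbours numbered 3 at a limit of 10 RPM (192 members), 8 at 5-fold (282 members) and 4 when up to 2 genes could lie between, against 1 pair. The neighbours' median log2 difference ran from -0.01 after quantile normalization, where that of all tested genes was -0.07, to 0.16. The median of all genes was -0.01 after median-of-ratios scaling. Depth limits values in 409 replicate 2, where members rest on as little as 1 read.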
